A study of Mus musculus with 8 samples.

Results

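The genes described here encode proteins that bring long-chain fatty acids into liver cells and carry them inside: the membrane proteins Cd36, Slc27a2 and Slc27a4, the cytosolic binding proteins Fabp1, Fabp2, Fabp4 and Fabp5, and the lipase Lpl. They were chosen by name, as the probe sets whose annotation gives exactly 1 gene symbol equal to 1 of these 8 names. No cut on the difference between the diets was applied, but the names were chosen with earlier results of these data known. The 8 genes are read by 16 probe sets among the 45037 tested, and they are 8 of the 18193 genes named by such probe sets. Slc27a2, Slc27a4 and Fabp2 have 1 probe set each, which makes 3 genes whose value rests on a single reading.

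Liver RNA from 8 male KK-Ay mice aged 14 weeks was hybridised to Affymetrix Mouse Genome 430 2.0 arrays, with 1 array for each mouse. All 8 mice carry the KK-Ay background, an obese and diabetic strain in which the yellow Ay allele was placed on KK mice, so no lean or non-diabetic animal was compared. The 4 CD mice ate AIN93G, a purified rodent diet, for 8 weeks, and the 4 PD mice ate the same diet with persimmon peel extract (PP extract) at 1 g/kg for that time. Each mouse is named here by its diet and the replicate number in its label, so CD4 is a mouse and not the T cell marker. Values are log2 expression indices as deposited, and a difference is always the PD mean minus the CD mean, so 1 unit is a doubling.

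As background, fatty acids reach the liver from plasma albumin and from triglycerides that lipoprotein lipase splits at the vessel wall. Cd36 and the Slc27 family (fatty acid transport proteins, some of which also activate fatty acids with coenzyme A) move them across the membrane, and the small Fabp proteins hold them in the cytosol on their way to oxidation, esterification or nuclear receptors. Fabp1 is the abundant hepatocyte form, Fabp2 is best known from the intestine, Fabp4 from adipocytes and macrophages, and Fabp5 from epidermis, macrophages and several other cells. Cd36, Fabp1 and Fabp4 are textbook targets of the PPAR nuclear receptors.

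The arrays resembled each other closely. The median log2 value of an array lay between 7.10 and 7.16, and the correlation between any 2 arrays across probe sets between 0.991 and 0.996. All 16 probe sets had a mean above 6.58, the level under which the lowest 25% of all probe sets lay. Albumin (Alb), which marks hepatocytes, read 14.68 to 14.76 in the 8 mice. Precision was limited by, among other things, the number of mice, 4 in each diet. An array value carries no count from which its own precision could be read.

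Of the 16 probe sets, 1 passed the rank product test in the upward direction at a false discovery rate (FDR) under 0.1, and it reads Fabp5. In the downward direction 0 passed. Across all probe sets the same test called 0.218% higher and 0.26% lower in PD mice. limma, which sets each difference against the spread between mice, called 0% of all probe sets at an adjusted p under 0.1 and 0 of the 16, where every adjusted p was 0.998 or above. At an unadjusted p under 0.05 it picked 1642 probe sets, 3.65% of the array, and 1 of the 16, which reads Lpl. In none of the 16 did the 2 groups stand apart without overlap, against 2.08% of all probe sets.

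Most differences were small. Of the 16 probe sets, 13 read higher and 3 lower in PD mice, with a median of 0.04 against −0.004 over all probe sets, where 21233 of 45037 read higher. With 1 probe set for each gene, the one with the highest mean over the 8 mice, 6 genes read higher and 2 lower, and the median was 0.07 against −0.01 over all genes. A difference of less than 0.1 was seen in 12 of the 16, or 75.0%, and in 86.6% of all probe sets. The spread among mice was wider for most of them than for the typical probe set: in 12 of the 16 the SD over the 8 mice was above 0.08, the median of all probe sets.

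**Figure D1:**
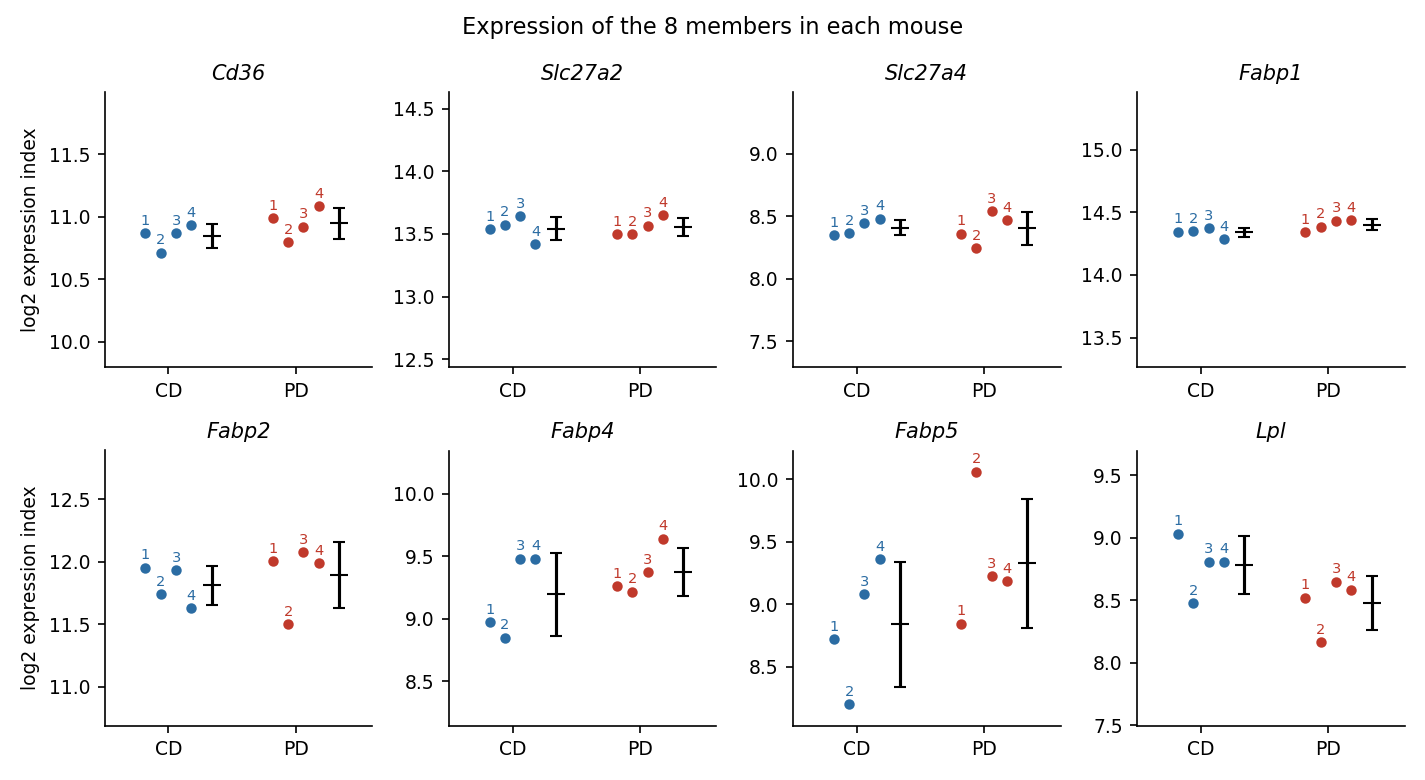
Log2 expression index of the 8 genes in each mouse, with 1 probe set for each gene and panels of equal height in log2 units. Blue points are CD mice and red points PD mice, the digit is the replicate number, and the bar to the right of each group is the mean ± SD of 4 mice. Fabp5 ranged over 1.86 among the 8 mice and Fabp1 over 0.15, and in every panel the groups overlapped.

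Among the membrane proteins, the diets left little difference. Cd36, a scavenger receptor that binds long-chain fatty acids at the cell surface, read 10.87, 10.71, 10.87 and 10.93 in CD mice 1 to 4 and 10.99, 10.79, 10.92 and 11.08 in PD mice 1 to 4. PD1 and PD4 lay above the highest CD mouse, while PD2 lay below the CD mean. The difference was 0.10 (95% interval −0.05 to 0.25, limma unadjusted p = 0.177, adjusted p = 0.998), and the rank product FDR was 1.08. The 2 further Cd36 probe sets gave 0.03 and 0.04, with intervals from −0.22 to 0.28 and from −0.18 to 0.26.

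Slc27a2, a transport protein of liver and kidney that also activates very long-chain fatty acids, read 13.54, 13.57, 13.64 and 13.42 in CD mice and 13.50, 13.50, 13.57 and 13.65 in PD mice. The groups overlapped over most of their range. The difference was 0.01 (95% interval −0.12 to 0.14, limma adjusted p = 0.999). Slc27a4, a widely expressed transport protein important in skin and intestine, read 8.35, 8.37, 8.45 and 8.48 in CD mice and 8.36, 8.25, 8.54 and 8.47 in PD mice. Both the lowest and the highest of the 8 mice were PD mice, PD2 and PD3. The difference was −0.01 (95% interval −0.15 to 0.14, limma adjusted p = 0.999), and it turned positive, to 0.003, when each array was centred on its own median.

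Fabp1, the main fatty acid binding protein of hepatocytes, read 14.35, 14.35, 14.38 and 14.29 in CD mice and 14.34, 14.39, 14.43 and 14.44 in PD mice. All 4 PD mice lay above the CD mean, and 3 of them above the highest CD mouse, with PD1 inside the CD range. The difference was 0.06 (95% interval −0.04 to 0.16, limma unadjusted p = 0.190, adjusted p = 0.998, exact permutation p = 0.114, two-sided). Its other probe set, 1448764_a_at, gave 0.01 with an SD of 0.04 in each group. The readings of the 2 probe sets followed each other only loosely over the 8 mice, with Pearson r = 0.44 (permutation p = 0.260, adjusted p = 0.431 over 12 pairs of probe sets of the same gene) and Spearman rho = 0.52 (permutation p = 0.197, adjusted p = 0.337). Without CD4 and PD4, the mice farthest from the median, r was −0.16.

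Promoter windows of 5 of the 8 genes (Cd36, Slc27a2, Slc27a4, Fabp1 and Fabp2) were read from the RefSeq sequences of GRCm38.p6. Each ran from 250 bases before to 50 bases after 1 start of the gene. The Cd36 window, chr5:17835847-17836146 on the minus strand, lies inside the span of that gene, chr5:17781690-17888959. It is thus at an internal start, and the outermost Cd36 start was not read. The PPAR motif was taken as 2 exact copies of AGGTCA in the same direction with 1 base between them, on either strand. It was in 0 of the 5 and in 0.0396% of 32851 windows. Copies with a mismatch were not searched, so this does not show that the promoters lack a PPAR site. A single AGGTCA was in 3 of the 5 (Cd36, Slc27a2 and Fabp1) and in 16.3% of all windows, and overlaps with the repeat by construction. The TATA box TATAAA was in 1 of the 5, Fabp1, and in 13.6% of all windows, and CCAAT was in 2 of the 5, Cd36 and Fabp2, and in 37.4%. The 90 bases before the Fabp1 start, at chr6:71199789-71199878 on the plus strand, are shown because Fabp1 alone among the 5 held both the single AGGTCA and the TATA box. In capitals are 2 copies of AGGTCA, read on the opposite strand as TGACCT and starting 67 and 9 bases before the start, and the TATA box, starting 30 bases before it. After the copy at 67 and 1 further base comes tggcct, or AGGCCA on the opposite strand, which differs from AGGTCA in 1 base.
Fabp1: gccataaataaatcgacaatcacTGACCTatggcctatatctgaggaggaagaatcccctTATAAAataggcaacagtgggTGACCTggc
These letters are a description, and binding was not measured. No promoter is shown for Fabp4, Fabp5 and Lpl.

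Fabp2, the intestinal form, read 11.95, 11.74, 11.93 and 11.63 in CD mice and 12.00, 11.50, 12.08 and 11.99 in PD mice. PD1, PD3 and PD4 lay above every CD mouse, and PD2 lay below every CD mouse. The difference was 0.08 (95% interval −0.19 to 0.35, limma unadjusted p = 0.527, adjusted p = 0.998), and without PD2 it was 0.21 with a rank product FDR of 0.822. The enterocyte marker Vil1 stayed under the dim level of 6.58 in all 8 mice. The other 8 of the 9 enterocyte markers had means above it, among them Apoa4 and Mttp, which liver also makes, at 13.84 and 11.33. The mean of the 9 was 8.32 to 8.36 in CD mice and 8.31 to 8.39 in PD mice, and 0 were called. Their part in the Fabp2 values was not tested.

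Fabp4, the adipocyte and macrophage form, read 8.97, 8.85, 9.48 and 9.48 in CD mice and 9.26, 9.22, 9.37 and 9.64 in PD mice on its brightest probe set, 1417023_a_at. CD1 and CD2 were the lowest of the 8 mice and PD4 the highest, and the other 3 PD mice lay within the CD range. The difference was 0.18 (95% interval −0.15 to 0.51, limma unadjusted p = 0.262, adjusted p = 0.998), and the rank product FDR was 0.488. It was 0.06 without CD2 and 0.27 without CD4. A second probe set, 1451263_a_at, followed the first over the 8 mice with Pearson r = 0.97 (permutation p = 0.000248, adjusted p = 0.00149 over the 12 same-gene pairs), Spearman rho = 0.90 (permutation p = 0.00456, adjusted p = 0.0137) and r = 0.91 without CD1 and CD2, and gave 0.09. The remaining 2 Fabp4 probe sets did not track this pair, with r of 0.06 and 0.06 against the first (permutation p = 0.895 and 0.894, adjusted p = 0.895 for both). These 2 were dimmer, with means over the 8 mice of 7.16 and 6.64 against 9.28 and 9.17 for the pair, and the dim level was 6.58. They also varied less, with SDs of 0.11 and 0.05 against 0.27 for the first. Their differences were 0.03 and 0.003.

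Because liver is a mixture of cells, fewer cells of a type and less RNA in each cell cannot be told apart in these values. The mean of 14 Kupffer cell and macrophage markers was 8.05 and 8.04 in CD1 and CD2, 8.36 and 8.34 in CD3 and CD4, and 8.19 to 8.26 in PD mice. The 2 CD mice with the least macrophage marker signal were also the 2 with the least Fabp4. Among PD mice the order differed: PD4, with the most Fabp4, had the lowest macrophage marker mean, 8.19, and PD1 the highest, 8.26. None of the 14 was called, 8 reading higher and 6 lower in PD mice. Adipoq, which defines adipocytes, stayed at 6.25 to 6.42, under the dim level of 6.58, and the mean of 6 adipocyte markers was 7.82 to 7.93 in CD mice and 7.81 to 8.14 in PD mice, highest in PD4. Within that list Cidec, a lipid droplet protein that fatty liver also makes, was called higher (0.38, FDR 0.0900, limma unadjusted p = 0.196). The Cidec difference was 0.10 without PD4, and 3 of the 8 refits that each left out 1 mouse kept the call. A second probe set of Car3, a carbonic anhydrase of adipocytes and liver, was called higher as well (0.12, FDR 0.0881), though its direction turned without PD3 or PD4. The part of either cell type in the Fabp4 values was not tested.

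Fabp5, the epidermal form, was the only one of the 8 genes called by the rank product. On probe set 1416021_a_at it read 8.72, 8.20, 9.08 and 9.36 in CD mice and 8.84, 10.06, 9.22 and 9.19 in PD mice. PD2 stood above all other mice and CD2 below them, while PD1, PD3 and PD4 lay within the CD range. The PD mean was 9.33 ± 0.52 (SD, n = 4) and the CD mean 8.84 ± 0.50 (SD, n = 4), a difference of 0.49, or 1.40-fold (95% interval on the log2 scale −0.12 to 1.09). The rank product placed it at rank 56 of 45037 for higher values, with an FDR of 0.0283. limma gave an unadjusted p of 0.102 and an adjusted p of 0.998, and the exact permutation test over the 70 ways of splitting the mice gave p = 0.286, two-sided, where the smallest p possible is 0.0286.

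The second Fabp5 probe set, 1416022_at, showed the same order of mice. It read 7.88, 7.48, 8.08 and 8.26 in CD mice and 7.94, 8.95, 8.23 and 8.09 in PD mice. Its difference of 0.38 had an FDR of 0.110, just outside the threshold. Over the 8 mice the 2 probe sets had Pearson r = 0.99 (permutation p = 2.5e-05, adjusted p = 0.000298), Spearman rho = 1.00 (permutation p = 5e-05, adjusted p = 0.000595) and r = 0.97 without CD2 and PD2.

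The call rested on few animals. Without PD2 the Fabp5 difference was 0.24 and its FDR 0.620, and without CD2 it was 0.27 with an FDR of 0.358. Leaving out PD3 or PD4 gave 0.52 and 0.54, with FDRs of 0.140 and 0.111. The sign was positive in each of the 8 refits, and 4 of them kept the call.

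**Figure D2:**
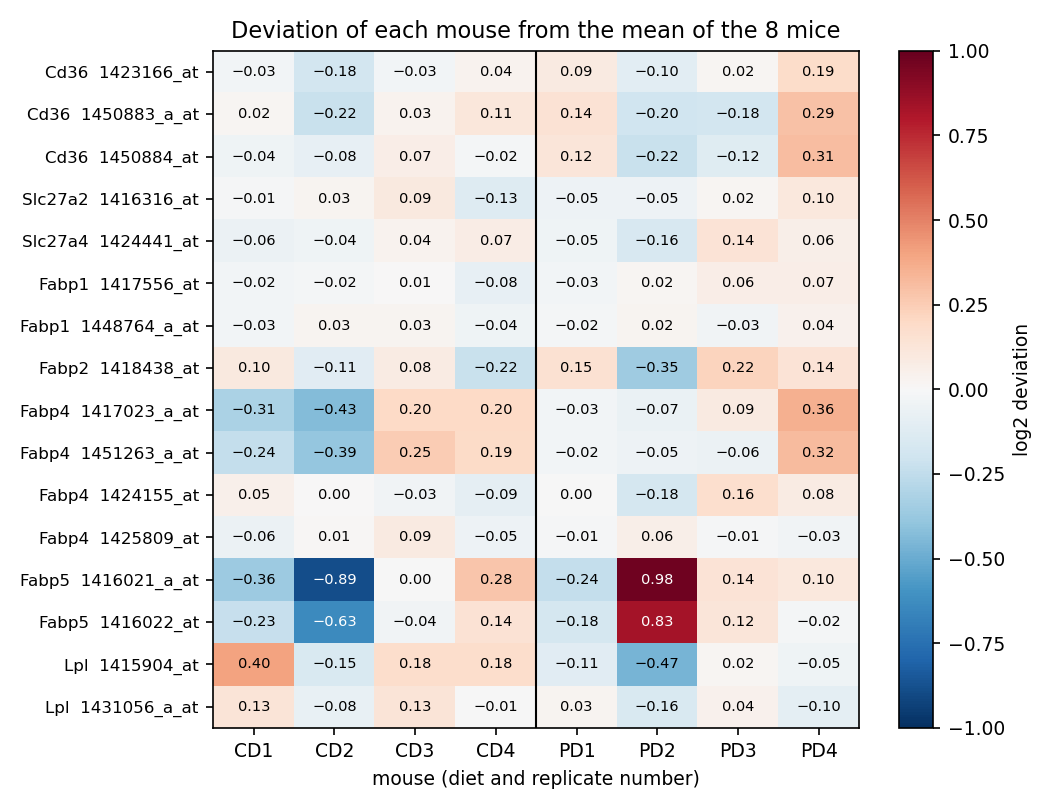
Deviation of each mouse from the mean of the 8 mice for the 16 probe sets, in log2 units (red above, blue below, colour scale from −1 to 1). The vertical line separates CD from PD mice. The Fabp5 rows hold the deepest colours, in CD2 and PD2, and the 2 upper Fabp4 rows share a pattern that the 2 lower, dimmer ones lack.

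Lpl, lipoprotein lipase, was lower in PD mice. Adult hepatocytes make little of this enzyme, which is known mainly from muscle, adipose tissue and macrophages. Probe set 1415904_at read 9.03, 8.48, 8.81 and 8.81 in CD mice and 8.52, 8.16, 8.65 and 8.59 in PD mice. All 4 PD mice lay below the CD mean, and the groups overlapped through CD2, which lay below PD1, PD3 and PD4. The CD mean was 8.78 ± 0.23 (SD, n = 4) and the PD mean 8.48 ± 0.22 (SD, n = 4), a difference of −0.30 (95% interval −0.58 to −0.03), or 1.23-fold higher in CD mice.

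The tests did not call Lpl. The limma unadjusted p was 0.0338 and the adjusted p 0.998, the rank product FDR for lower values was 0.146, and the exact permutation p was 0.114, two-sided. Without PD3 the rank product called it (−0.36, FDR 0.0798). Without PD2 the difference was −0.20, as it was when the 2 probe sets were averaged. The dimmer probe set, 1431056_a_at, gave −0.09 (95% interval −0.24 to 0.05). Its 8 values followed those of the first with Pearson r = 0.84 (permutation p = 0.00771, adjusted p = 0.0185), Spearman rho = 0.83 (permutation p = 0.0154, adjusted p = 0.0369) and r = 0.61 without CD1 and PD2. Muscle markers had a mean over 8 genes of 7.07 to 7.16 in CD mice and 7.06 to 7.18 in PD mice, close to the array medians. One of them, Myl1, had a mean over the 8 mice of 6.45, under the dim level of 6.58. Signals this low could miss a difference in muscle RNA. Whether muscle, adipose or macrophage RNA had a part in the Lpl values was not tested.

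**Figure D3:**
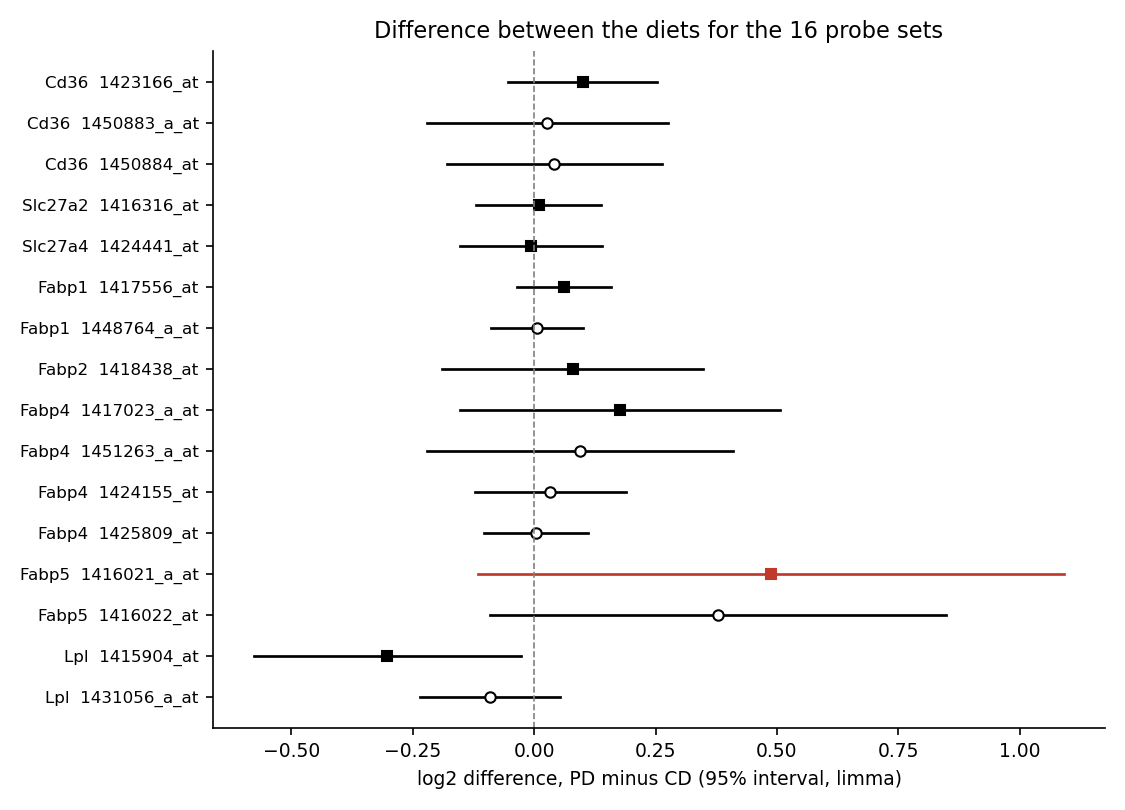
Log2 difference between the diets (PD minus CD) for the 16 probe sets, with the 95% interval from limma. Filled squares mark the probe set that stands for a gene, open circles the others, and red the one called by the rank product. Only the interval of Lpl probe set 1415904_at, from −0.58 to −0.03, lies wholly on one side of 0, and that of Fabp5 probe set 1416021_a_at is the widest.

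**Figure D4:**
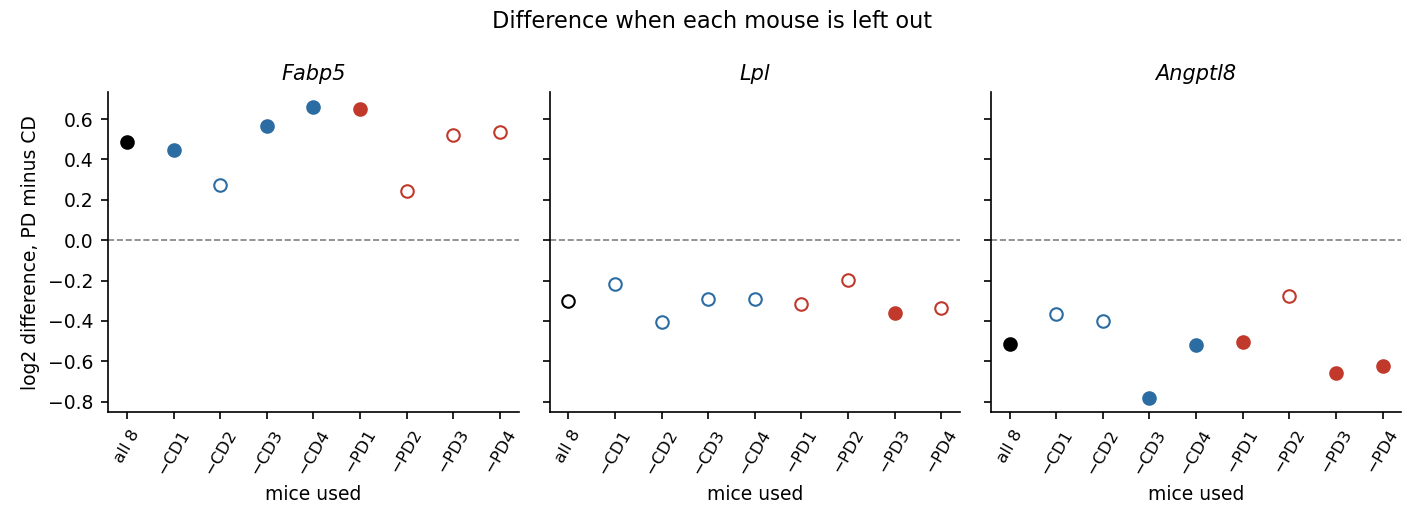
Log2 difference (PD minus CD) of Fabp5, Lpl and Angptl8 with all 8 mice (black) and with each mouse left out in turn (blue for a CD mouse, red for a PD mouse). Filled points passed the rank product at an FDR under 0.1. Fabp5 passed in 4 of 8 refits, Lpl in 1 and Angptl8 in 5, and in each gene all points lie on the same side of 0.

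No mouse was high or low across the whole set. PD4 was the highest mouse for 4 of the 8 genes, and CD2 and PD2 were each the lowest for 3. PD2 was lowest for Slc27a4, Fabp2 and Lpl and highest for Fabp5. Among the 28 pairs of genes, the closest over the 8 mice were Cd36 and Fabp4, with Pearson r = 0.76 (permutation p = 0.0263, adjusted p = 0.579 over the 28 pairs) and Spearman rho = 0.81 (permutation p = 0.0218, adjusted p = 0.610). Without CD2 and PD4, the mice with the lowest and highest Cd36, that r was 0.26 over 6 mice. Leaving out both ends of a range can lower r by itself, so the fall does not show what the relation rested on. Slc27a2 and Fabp1 gave r = 0.72 (permutation p = 0.0413, adjusted p = 0.579), rho = 0.74 (permutation p = 0.0458, adjusted p = 0.642) and r = 0.20 without CD4 and PD4. No pair held after adjustment.

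Fabp4 and Fabp5 are neighbours in the genome. In the RefSeq annotation of build GRCm38.p6, Fabp5 lies at chr3:10012585-10016610 and Fabp4 at chr3:10204342-10208616, 187.7 kb apart, with the family members Pmp2 and Fabp9 between them. Over the 8 mice they gave Pearson r = 0.53 (permutation p = 0.169, adjusted p = 0.628), Spearman rho = 0.52 (permutation p = 0.197, adjusted p = 0.788) and r = −0.34 without CD1 and CD2. Fabp2 lies on the same chromosome, at chr3:122895072-122899506. The others are Slc27a4 at chr2:29802634-29817522, Slc27a2 at chr2:126553024-126588243, Cd36 at chr5:17781690-17888959, Fabp1 at chr6:71199879-71205034 and Lpl at chr8:68880555-68906932. The position of the probes within these genes was not analysed.

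The genes whose values followed a member most closely over the 8 mice were found among probe sets with 1 symbol, and are given as a description with no test, since they are the highest of many. For Fabp5 they were Rps19, a ribosomal protein, Aldoa, a glycolytic enzyme, and Golph3, a Golgi protein, with r of 0.97, 0.97 and 0.96. For Fabp4 they were Ctsd, a lysosomal protease, Slc35a2 and Zup1, with r of 0.97, 0.96 and 0.96. For Lpl they were Sdr9c7, Nsmce3 and Baat, the enzyme that joins bile acids to amino acids, with r of 0.95, 0.95 and 0.94. For Cd36 they were Rin2, Mpv17l2 and H2-K1, with r of 0.95, 0.92 and 0.92. Fabp2 was matched most closely by Emc8, Mmut and Iigp1, with r of 0.98, 0.96 and 0.95, and Slc27a4 by Pagr1a, Cox19 and Pcyox1, with r of 0.96, 0.95 and 0.95. None of these 18 genes was called by the rank product. Slc27a2 and Fabp1 varied less than the typical probe set and were not matched.

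Around the 8 genes, 64 other genes of fatty acid uptake and binding were measured, in 6 lists. Of these 25 read higher and 39 lower in PD mice, with a median of −0.02 against −0.01 over all genes. The rank product called 0 of the 64 higher and 1 lower. Over all 18193 genes, with 1 probe set each, it called 52 higher and 65 lower. Of those 18193 genes, 772 had a limma unadjusted p under 0.05. limma called 0 at an adjusted p under 0.1 and 2 at an unadjusted p under 0.05, in neither of which the groups stood apart. Those 2, picked after their values were seen, were Sort1, a sorting receptor that handles lipoproteins (−0.25, unadjusted p = 0.0146, and −0.07 with its probe sets averaged), and Acsl4, an acyl-CoA synthetase for arachidonic acid (0.20, unadjusted p = 0.0435).

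The called gene was Angptl8, a secreted hepatocyte protein that, with its relatives, restrains lipoprotein lipase. It read 10.20, 10.09, 8.95 and 9.74 in CD mice and 9.19, 8.51, 9.66 and 9.55 in PD mice. All 4 PD mice lay below the CD mean, but CD3 was lower than every PD mouse except PD2. The difference was −0.52 (95% interval −1.16 to 0.13), or 1.43-fold higher in CD mice, with a rank product FDR of 0.0173 and a limma adjusted p of 0.998. Without CD1, CD2 or PD2 the call was lost, at −0.36, −0.40 and −0.28.

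The other 11 genes of lipoprotein lipase handling were not called, with differences from −0.25 (Sort1) to 0.10 (Gpihbp1). Gpihbp1, which anchors the lipase to capillary endothelium, differed by 0.10 (95% interval −0.04 to 0.23). Angptl4, a lipase inhibitor induced by fasting, differed by −0.03 (95% interval −0.54 to 0.49), with CD4 at 9.55 and the other 3 CD mice at 10.60 to 10.69, and its sign turned when CD1, CD2, CD3 or PD1 was left out. Of the 12 genes in this list, Angptl8 included, 4 read higher and 8 lower.

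In the transporter and binding protein families, all 3 other Slc27 genes measured read lower, without a call. Slc27a5, the liver transport protein that also activates bile acids, differed by −0.09 (95% interval −0.23 to 0.04). Of the 8 other Fabp family genes 3 read higher and 5 lower, between −0.23 and 0.12. Of the 9 membrane partners of uptake 3 read higher and 6 lower, between −0.13 and 0.10. The acyl-CoA synthetases and acyl-CoA binding proteins had 8 of 13 higher, and Dbi, the acyl-CoA binding protein, differed by 0.04 (95% interval −0.11 to 0.18).

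Among the 19 regulators measured, 7 read higher and 12 lower, with none called. Ppara, the nuclear receptor of hepatic fatty acid oxidation, read 10.15, 10.56, 10.75 and 10.35 in CD mice and 10.58, 10.66, 10.66 and 10.74 in PD mice. The PD mice lay close together, all above the CD mean and all below CD3. The difference was 0.20 (95% interval −0.03 to 0.44, limma unadjusted p = 0.0862, adjusted p = 0.998, rank product FDR 0.483). Pparg, the adipogenic receptor, differed by 0.08 (95% interval −0.47 to 0.64), with PD4 at 9.21 and the other 7 mice between 7.87 and 8.40, and without PD4 the difference was −0.21.

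**Figure D5:**
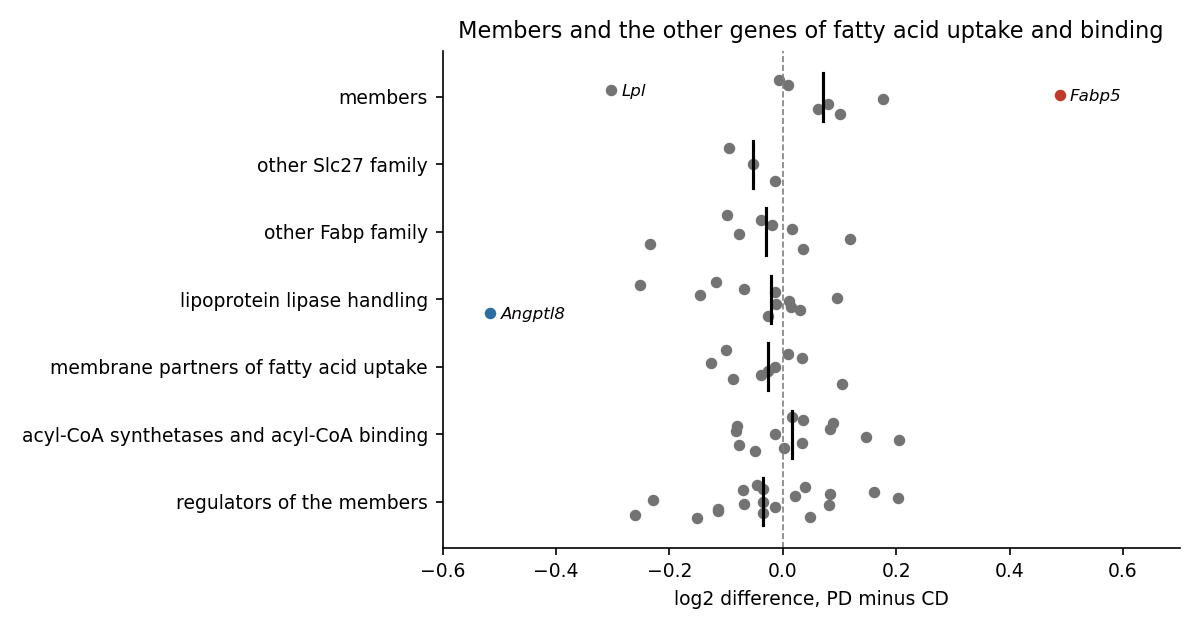
Log2 difference (PD minus CD) of the 8 genes and of the 64 other genes of fatty acid uptake and binding, 1 probe set for each gene. Each row is a list, each point a gene, and the black line is the median of the row. Red marks the gene called higher (Fabp5) and blue the gene called lower (Angptl8). Lpl, labelled for reference, was not called.

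In the further cell type lists, endothelial markers gave 0 calls among 11 genes. Over all 18193 genes, with 1 probe set each, 52 were called higher and 65 lower. The fibroblast and stellate cell markers had 1 of 10, Col3a1, a fibrillar collagen (0.37, FDR 0.0211), and 7 of the 10 read higher in PD mice, with a median of 0.14 against −0.01 over all genes. The mean of these 10 markers was 8.10, 8.00, 8.33 and 8.05 in CD mice and 8.23, 8.26, 8.21 and 8.29 in PD mice, so that CD3 lay above all PD mice and the other CD mice below them. Of the 10 hepatocyte markers measured, 1 was called lower, Tat, an amino acid degrading enzyme induced by glucocorticoids (−0.44, FDR 0.0308), in which all PD mice read below all CD mice. Their part in the values of the fatty acid genes was not tested.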

How the data were processed

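The authors deposited log2 expression values of 8 arrays, made as model-based expression indices with R version 2.7.2 per the submitters' processing notes; normalization between arrays, scan dates and batches are not given in the sources used here. The 64 control probe sets were left out. Gene symbols came from the platform annotation: 34945 probe sets had 1 symbol, 932 several and 9160 none. The rank product followed the study's methods: 16 PD and CD pairs of arrays, 1000 permutations within arrays, FDR under 0.1 (an estimate that can exceed 1). limma 3.58.1 (R 4.3.3, Benjamini-Hochberg over all probe sets) gave the 95% intervals and the adjusted p-values. Both were also run on simulated data with independent noise and planted changes, which does not show how they behave with these mice. The named genes were every member with all its probe sets, listed pathway and cell marker genes that were called, a few listed by name, and the 3 best matches by Pearson r of each member whose SD was above the median of all probe sets (6 of 8). The members and lists were chosen with earlier results of these data known. The labels call the samples biological replicates. The limma, t-test and exact permutation p-values set a difference against the spread between these mice, while the rank product FDR comes from shuffling values within arrays. The study's methods say that the arrayed mice were picked for plasma ketone bodies close to the average, so their spread may differ from that of unselected mice. Alternatives were another FDR, a replicate block, quantile normalization, median centring, an offset of 16, leaving out dim or shared probe sets, other limma variances and weights, the methods' t-test and leaving out each mouse.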

Additional observations from a re-analysis of the deposited data

Results flagged for a closer look

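Among 32 sets of 4 values (16 probe sets in each diet), 2 held a mouse far from the other 3, where about 1 in 20 is flagged by chance. The test divides the gap to the nearest mouse by the range of the group, against Dixon's 95% critical value for 4 samples. Fabp2 in PD mice gave 0.848: PD2 read 11.50 and the others 11.99 to 12.08. Fabp4 probe set 1451263_a_at in PD mice gave 0.905: PD4 read 9.49 and the others 9.11 to 9.15. Without PD2, all 3 remaining PD mice lay above every CD mouse for Fabp2. PD2 was left out here after its value was seen, so this is a description only.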

How the results depend on the processing

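The number of the 16 probe sets called higher, 1 with all mice, was 2 under quantile normalization and when PD arrays were ranked against the averaged CD arrays, the added one being the second Fabp5 probe set (FDR 0.0993 and 0.0699). Across leave-one-out refits it ran from 0 (without CD2, PD2, PD3 or PD4) to 2 (without CD3, CD4 or PD1). The number called lower ran from 0 to 1, with Lpl called without PD3. Groups standing apart ran from 0 to 1 upward (Fabp1 without PD1, Fabp2 without PD2) and from 0 to 1 downward (Lpl without CD2). Smaller groups stand apart more readily, and the share over all probe sets was not counted in these refits, so no separation is read from them. Of the pathway genes, 1 was called higher against the CD average and without CD3 (Ppara, on another probe set), for a leave-one-out range of 0 to 1. The number called lower was 0 against the CD average and ran from 0 (without CD1 or CD2) to 2 (without PD1, with Nr1i3 added), and without PD2 it was Cebpb in place of Angptl8. limma called 0 throughout. The cause of these changes was not tested.

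Same-numbered CD and PD mice did not deviate together, with r of −0.06 to −0.0003 over probe sets, against −0.19 to 0.16 for other pairs. These r values were not tested and cannot decide whether the numbers stand for a shared batch or handling, which the labels do not give. With the replicate block, where only same-numbered arrays were ranked against each other, 0 of the 16 probe sets were called higher, and the Fabp5 FDR was 0.291. The methods' t-test gave p under 0.05 for 1711 probe sets, 0 of them after Benjamini-Hochberg and 0 of the 16.

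Over all probe sets the called numbers moved by more than 1.5 times without some mice: 98 higher ranged from 27 (without PD4) to 189 (without CD3), and 117 lower from 0 (against the CD average) and 16 (without CD1) to 209 (without PD1). The CD average gave 157 higher, and an FDR under 0.05 left 55 lower.

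Differences near 0 changed sign. Slc27a4 became 0.0034 with centred arrays and 0.015 with array weights, and ran from −0.053 to 0.047 over the leave-one-out refits. In those refits Slc27a2 ran from −0.032 to 0.042, the Cd36 probe sets 1450883_a_at and 1450884_at from −0.065 to 0.098 and from −0.055 to 0.12, and Fabp1 probe set 1448764_a_at from −0.0072 to 0.018. The Fabp4 probe sets 1451263_a_at, 1424155_at and 1425809_at ran from −0.020 to 0.19, −0.016 to 0.098 and −0.017 to 0.033. Angptl4 ran from −0.30 to 0.094, Dbi from −0.014 to 0.075, Pparg from −0.21 to 0.24 and the Car3 probe set from −0.16 to 0.55. Averaging all probe sets of a gene gave 0.056 for Cd36, 0.034 for Fabp1 and 0.077 for Fabp4. The calls of Cidec, Col3a1 and Tat were each lost without some mice. Fabp5 and Lpl kept their sign in every alternative run.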
